A study of Mus musculus with 19 samples.

Results

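The Ifi200 cluster is a run of interferon-inducible genes on mouse chromosome 1, and 9 of its genes were followed here across all 19 libraries of the series: Ifi203, Ifi204, Ifi205, Ifi207, Ifi209, Ifi211, Ifi213, Ifi214 and Mndal. The members were taken by symbol from the GENCODE M39 annotation on GRCm39 and matched to the Ensembl identifiers of the count table, so that 9 of its 56980 genes are described. All 9 passed the low-count filter that left 18739 genes for testing, Ifi205 and Ifi214 only through their counts after LPS. They lie between chr1:173347283 and chr1:173859456, a span of 512 kb, with 8 genes on the minus strand and 1, Ifi209, on the plus strand.

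The libraries came from CD11b+ cells that were isolated with magnetic beads (MACS) from the brains of male mice aged 3 to 4 months, without olfactory bulb and cerebellum. CD11b is an integrin of microglia and other myeloid cells. PARK7/DJ-1 knockout (KO) mice, which carry a gene trap in Park7 and were backcrossed to C57BL/6NCrl mice, were set beside wildtype (WT) littermates 6 h after an intraperitoneal injection of LPS (lipopolysaccharide, a bacterial cell wall component, 4 µg per g body weight) or of saline vehicle, called PBS in the labels. The groups held 4 WT mice with PBS, 5 WT mice with LPS, 5 KO mice with PBS and 5 KO mice with LPS. The gene trap acts in every cell of the animal, so the KO is not restricted to microglia.

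Proteins of this family (p200 or PYHIN proteins) typically join an N-terminal pyrin domain, which binds other proteins, to 1 or more HIN domains, which bind double-stranded DNA. Members of the family sense DNA in the cytosol or nucleus and can pass the signal to STING, an adaptor that turns on type I interferon, or, in the case of AIM2, assemble an inflammasome. Type I interferon acts back on the same genes: its receptor activates a complex that holds STAT2 and IRF9, which binds interferon-stimulated response elements (ISRE) in promoters. The mouse cluster has grown by gene duplication, and its genes are close in sequence.

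That likeness is visible in front of the annotated starts. The ISRE core was searched as the letters GAAANNGAAA on both strands of the RefSeq promoter windows, each reaching from 250 bases before to 50 bases after a start on the build GRCm38.p6. The table held windows for 8 of the 9 members (10 windows) and none for Ifi204. The letters were found in at least 1 window of 7 of these 8 members. Among all 32851 windows of 27025 genes, 3.44% held them, which is a share of windows and not of genes. The window of a further annotated start of Ifi203 did not hold them. The stretches around the forward-strand matches of the members and of the neighbour Ifi208 are printed because they show the shared core and the subgroups of the cluster. They run 5′ to 3′ on the strand of the gene, and the capitals mark the ISRE letters, or in Ifi209 the nearest match.
Ifi203 (chr1:173942498-173942557, minus strand): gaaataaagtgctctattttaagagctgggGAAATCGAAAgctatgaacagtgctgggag
Mndal (chr1:173880194-173880253, minus strand): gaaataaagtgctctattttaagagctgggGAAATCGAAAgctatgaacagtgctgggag
Ifi205 (chr1:174031860-174031919, minus strand): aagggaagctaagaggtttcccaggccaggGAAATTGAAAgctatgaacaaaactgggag
Ifi207 (chr1:173741821-173741880, minus strand): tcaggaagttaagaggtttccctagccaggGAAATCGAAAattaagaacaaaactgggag
Ifi211 (chr1:173913054-173913113, minus strand): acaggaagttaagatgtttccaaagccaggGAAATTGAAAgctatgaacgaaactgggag
Ifi209 (chr1:173630750-173630809, plus strand): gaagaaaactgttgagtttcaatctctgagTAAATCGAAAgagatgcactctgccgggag
Ifi214 (chr1:173536007-173536066, minus strand): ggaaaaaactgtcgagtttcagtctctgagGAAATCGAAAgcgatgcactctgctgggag
Ifi213 (chr1:173599316-173599375, minus strand): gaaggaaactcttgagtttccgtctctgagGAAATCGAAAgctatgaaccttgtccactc
Ifi208 (chr1:173673577-173673636, plus strand): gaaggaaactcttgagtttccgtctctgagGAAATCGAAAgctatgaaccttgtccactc

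Aligned on the capitals, the stretches of Ifi203 and Mndal were identical over 60 of 60 bases. Those of Ifi205, Ifi207 and Ifi211 formed a second set, with 83.3% to 88.3% identical bases among the 3. Ifi209 and Ifi214 shared 88.3%, and Ifi213 was identical over 60 of 60 bases to Ifi208, a neighbour in the cluster that is no member here. The stretch of Ifi206, another neighbour, is not printed and shared 98.3% with that of Ifi213. Members from different sets shared from 51.7% (Ifi207 and Ifi213) to 73.3% (Ifi209 and Ifi213). The Ifi209 stretch departs from the searched letters by 1 substitution, G1T, where positions are counted from the 5′ end of the 10 letters, the searched base comes first and the base in the window last. The core began 35 bases before the start in Ifi203, 36 in Mndal, 37 in Ifi211, 41 in Ifi207, 73 in Ifi213, 79 in Ifi214 and 134 in Ifi205. Ifi205 held another match on the reverse strand, 23 bases after its start, and so did a further annotated start of Mndal, 54 bases before it.

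**Figure D1:**
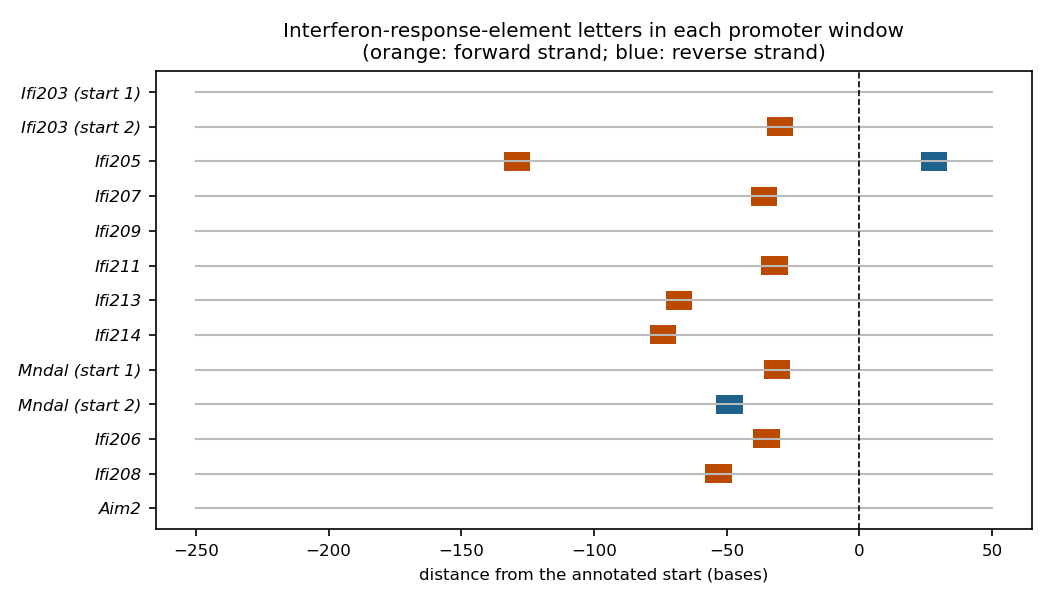
Positions of the ISRE letters (boxes, drawn to their length of 10 bases) in the RefSeq promoter windows of 8 members and of Ifi206, Ifi208 and Aim2, against the distance in bases from the annotated start. Orange boxes lie on the strand of the gene and blue boxes on the opposite strand. In 6 of the 7 members with a match a forward-strand box lies within 79 bases before a start, and in Ifi205 it lies 134 bases before it.

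No member window held the letters of a GAS element (TTCNNNGAA), of an NF-kappaB site (GGGNNTTTCC) or of PU.1, the lineage factor of myeloid cells (GAGGAAG), which were searched the same way. Among all windows these letters stood in 8.3%, 1.63% and 13.63%. The 4 patterns may overlap each other in a window. A match is a description of letters, and the lack of one says only that the letters are not in these windows.

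Total counts per library ranged from 11936364 to 22788884 (median 17211939). Park7 averaged 22.3 ± 2.08 (SD, n = 4) and 25.3 ± 3.91 (n = 5) CPM (counts relative to the library's normalized total) in WT mice with PBS and LPS, and 1.66 ± 0.962 and 3.45 ± 1.72 CPM (n = 5 each) in KO mice, with no overlap between the genotypes. Tnfrsf9, a costimulatory receptor gene next to Park7, was lower in KO after LPS by a log2 fold change of -3.67 (edgeR's quasi-likelihood test, adjusted p = 0.0129). The CD11b+ label was checked against marker lists. The 10 microglia markers found in the table summed to 25500 to 41000 CPM in the PBS libraries and to 10900 to 17400 CPM after LPS, and 9 of the 10 passed the test as lower in each genotype. The 5 monocyte markers (among them Ly6c2, Ccr2, Plac8 and Chil3) summed to 18.8 to 56.4 CPM with PBS and to 144 to 465 CPM with LPS, and 5 of 5 were higher in each genotype. Neutrophil markers went from 13 to 106 CPM with PBS to 84.1 to 341 CPM with LPS, with 4 of 7 called higher in WT and 5 of 7 in KO. Markers of border-associated macrophages went from 489 to 652 CPM to 274 to 527 CPM, with 4 of 7 called lower in each genotype. Oligodendrocyte markers reached 11100 CPM and astrocyte markers 3930 CPM in single libraries, neuron markers 93.8 CPM, endothelial markers 844 CPM and lymphocyte markers 3.61 CPM. After LPS, 1 of 4 astrocyte and 1 of 4 neuron markers were called higher and 1 of 4 endothelial markers lower in each genotype. No oligodendrocyte or tested lymphocyte marker was called after LPS. Among all 18739 genes tested, 18.4% in WT and 20.1% in KO mice were called higher after LPS. An adjusted p under 0.05 in either direction was reached by 7815 genes in WT and 8632 in KO mice (edgeR). Whether a marker passed the low-count filter only through its LPS libraries was not examined. Between the genotypes, 1 of 2 tested lymphocyte markers was lower in KO after LPS, where 0.763% of all genes were called lower. No other marker of these lists passed between the genotypes. With PBS, the T cell marker Cd3d was at 0 in all KO libraries.

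The members of the cluster were higher in CD11b+ brain cells after systemic LPS. For 7 of them, all but Ifi205 and Ifi214, the counts with PBS alone sufficed for the low-count filter, which asked for 0.581 CPM of the plain library total in 4 libraries. In WT mice, 7 of these 7 passed the test as higher after LPS, where 18.4% of all genes tested did so. In KO mice, 7 of 7 passed, against 20.1% of all genes. A member counted as called here at an adjusted p under 0.05 and a log2 fold change of at least 0.5 in size (edgeR's quasi-likelihood test, Benjamini-Hochberg over all genes tested). The log2 fold changes of the 7 ran from 1.62 (Ifi203) to 4.55 (Ifi211) in WT mice, with a median of 3.47 beside -0.06 over all genes, and from 1.77 (Ifi203) to 4.45 (Ifi211) in KO mice, with a median of 3.43 beside -0.01. The largest adjusted p among them was 0.000145 in WT and 2.07e-05 in KO mice (edgeR), both for Ifi203. For 7 of the 7 genes every LPS library lay above every PBS library in both genotypes, which held for 20.8% of all genes in WT and 16.2% in KO mice. Ifi205 and Ifi214 passed the filter only because they were high with LPS, so their direction was fixed by it, and their values are given below as a description. Monocyte and neutrophil markers rose in the same libraries, as given above, and their part in these changes was not tested. In bulk RNA, fewer cells of a type and less RNA per cell cannot be told apart.

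**Figure D2:**
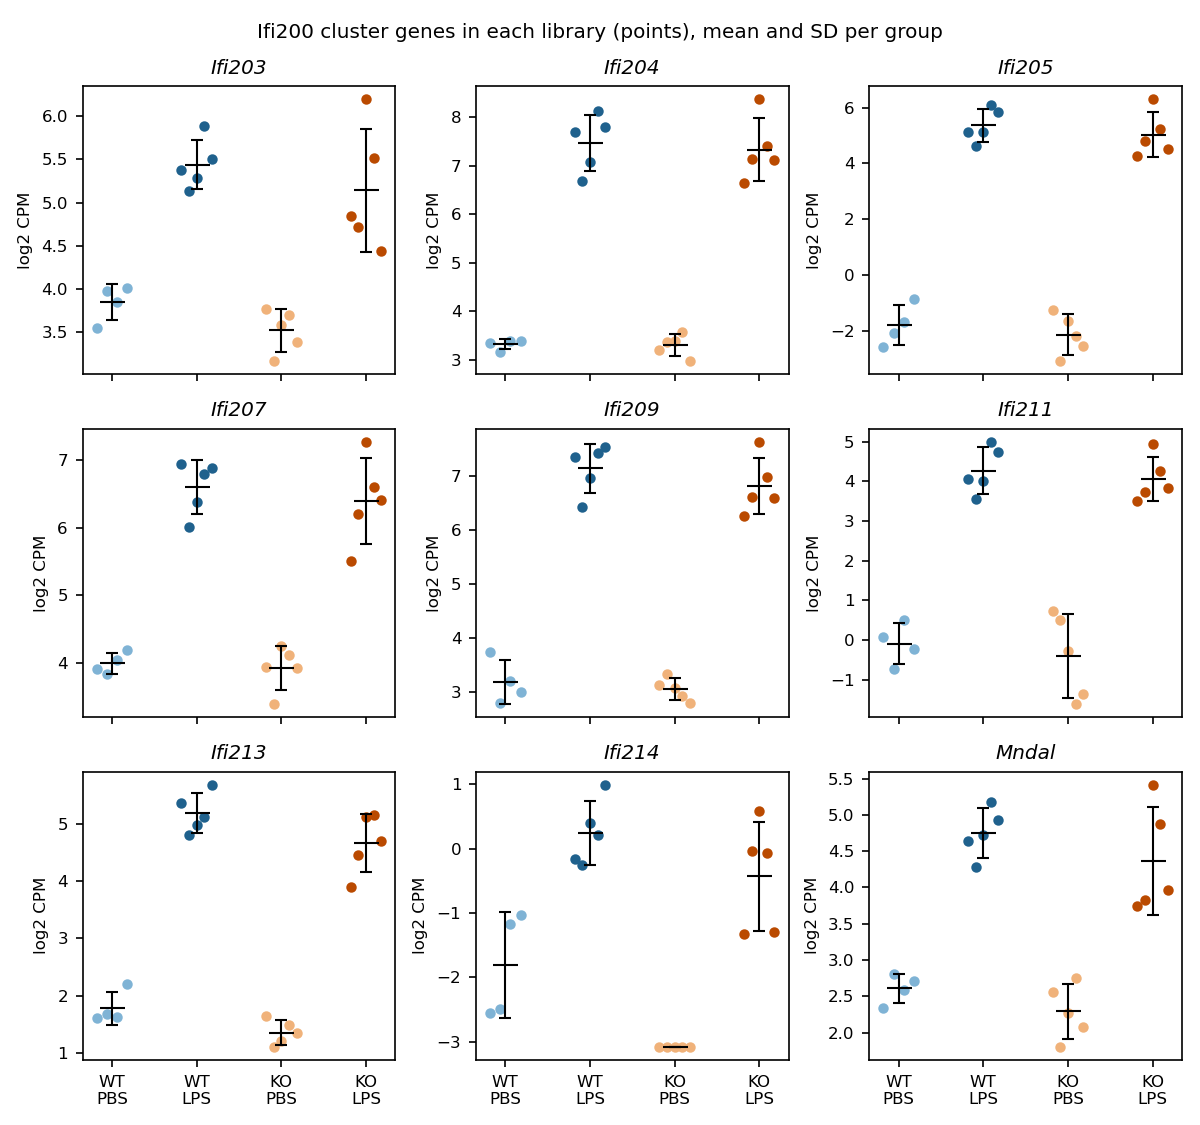
Levels of the 9 cluster genes as log2 CPM (vertical axis, prior count 2, a separate scale for each gene) in every library (points), by genotype and treatment, with the mean and SD of each group (bars). The LPS libraries lie above the PBS libraries of the same genotype for each gene, and the WT and KO points overlap except for Ifi214 with PBS, where the 5 KO libraries share the lowest value, a count of 0.

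Ifi204 (ENSMUSG00000073489, chr1:173574859-173594610), which encodes the DNA sensor p204 that acts upstream of STING, had the highest level per length after LPS. In WT mice it stood at 10.1, 8.91, 10.4 and 10.4 CPM with PBS and at 207, 103, 136, 279.5 and 222 CPM with LPS. In KO mice the values were 9.145, 10.2, 10.4, 11.9 and 7.725 CPM with PBS and 99.5, 141, 332, 169 and 138 CPM with LPS. The PBS libraries were close to each other, with a coefficient of variation of 7.14% in WT mice, whereas it was 37.0% after LPS in WT and 51.5% in KO mice. The log2 fold change was 4.25 ± 0.346 (SE; 19.1-fold) in WT and 4.15 ± 0.313 (17.8-fold) in KO mice, with adjusted p-values of 2.12e-08 and 5.15e-09 (edgeR). Of the stretches of 75 exonic bases in Ifi204, 28.04% occur at more than 1 place in the genome, most of them (25.73% of all) shared with Ifi211, so its count may depend on how reads with several places were treated.

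Ifi205 (ENSMUSG00000054203, chr1:173839549-173859456) encodes p205, a protein linked to expression of the inflammasome adaptor ASC in macrophages. It was near the floor with PBS and had the largest fitted rise among the 9 members in WT mice. In KO mice it cannot be ranked against Ifi214, whose counts with PBS were all 0. WT libraries held 0.0521, 0.121, 0.197 and 0.435 CPM with PBS, from counts of 1 to 7, and 35.1, 24.5, 34.45, 67.3 and 57.7 CPM with LPS. KO libraries held 0.307, 0, 0.203, 0.105 and 0.054 CPM with PBS, from counts of 0 to 5, and 19.1, 27.6, 78.8, 37.75 and 22.7 CPM with LPS. From summed counts, the level after LPS was 221 times that with PBS in WT mice (13 and 3245 counts, 95% counting interval 129 to 415) and 296 times in KO mice (12 and 3128 counts, 169 to 574). These intervals cover counting error only. In WT mice 7 of the 13 PBS counts lay in library 4, and without it the fitted log2 fold change went from 7.75 to 8.46 (7.41 to 8.46 over all libraries left out in turn). Of its exonic 75-base stretches, 16.72% occur elsewhere in the genome.

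Ifi207 (ENSMUSG00000073490, chr1:173550990-173569383), the member with the highest level per length with PBS, is less well described. It was measured at 14.9, 14.2, 16.3 and 18.1 CPM with PBS and at 123, 64.4, 83.5, 111 and 118 CPM with LPS in WT mice. KO mice gave 15.2, 10.35, 18.95, 17.2 and 15.1 CPM and 45.4, 73.3, 154, 97.2 and 85.1 CPM. The groups with PBS and with LPS did not overlap, and the log2 fold changes were 2.66 ± 0.288 (6.3-fold) in WT and 2.57 ± 0.263 (5.93-fold) in KO mice (adjusted p = 5.69e-07 and 2.13e-07, edgeR). Ifi207 was the member least touched by shared sequence, with 3.75% of its 75-base stretches at more than 1 place.

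Ifi209 (ENSMUSG00000043263, chr1:173458380-173475494, plus strand) went from 13.2, 6.79, 9.13 and 7.89 CPM with PBS to 162, 86.1, 124, 172 and 186 CPM with LPS in WT mice. In KO mice it went from 8.65, 9.93, 8.33, 7.49 and 6.86 to 76.9, 97.8, 198, 126 and 96.6 CPM. Its fold changes of 15.7 in WT (log2 3.98 ± 0.301) and 14.4 in KO mice (log2 3.85 ± 0.273) had adjusted p-values of 9.53e-09 and 2.55e-09 (edgeR). Its window holds a near match but not the ISRE letters. Members with the letters had fold changes both below it (Ifi203, Ifi207, Ifi213 and Mndal) and above it (Ifi211) in value. Ifi205 and Ifi214 were left aside for their low counts with PBS. The differences in fold change were not tested. Of its 75-base stretches, 25.44% occur at more than 1 place, nearly all of them (24.85%) shared with Ifi214.

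Ifi211 (ENSMUSG00000026536, chr1:173723911-173740612) was low with PBS, at 0.938, 0.485, 1.31 and 0.745 CPM in WT and 1.53, 1.29, 0.711, 0.2095 and 0.27 CPM in KO mice. LPS libraries held 16.5, 11.6, 16.1, 31.7 and 26.4 CPM in WT and 11.3, 13.2, 30.7, 18.9 and 14.2 CPM in KO mice, a log2 fold change of 4.55 ± 0.531 and 4.45 ± 0.48 (adjusted p = 1.39e-06 and 4.04e-07, edgeR). It is also the member whose counts are hardest to place: 63.14% of its 75-base stretches occur at more than 1 place, and 43.39% are shared with Ifi205.

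Ifi213 (ENSMUSG00000073491, chr1:173393846-173426881) was measured at 2.92, 3.09, 2.96 and 4.47 CPM with PBS and 41.15, 27.75, 31.5, 34.5 and 51.3 CPM with LPS in WT mice. The KO values were 3.01, 2.03, 2.185, 2.67 and 2.43 CPM and 14.85, 21.95, 34.5, 35.35 and 25.9 CPM. It rose 11.1-fold in WT (log2 3.47 ± 0.266) and 10.7-fold in KO mice (log2 3.43 ± 0.243), with adjusted p-values of 1.04e-08 and 2.63e-09 (edgeR). Of its 75-base stretches, 12.64% occur at more than 1 place.

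Ifi203 (ENSMUSG00000039997, chr1:173747971-173770436) and Mndal (ENSMUSG00000090272, chr1:173676539-173708447), the pair with identical promoter stretches, had the smallest rises in both genotypes. Ifi203 went from 11.6, 15.6, 14.3 and 16.0 CPM to 41.5, 35.1, 38.96, 59.2 and 45.4 CPM in WT mice and from 13.5, 8.82, 11.9, 12.8 and 10.3 to 28.5, 26.1, 73.3, 45.75 and 21.65 CPM in KO mice. Mndal, named after the human myeloid nuclear differentiation antigen, went from 4.95, 6.85, 5.91 and 6.46 CPM to 24.8, 19.3, 26.2, 36.2 and 30.4 CPM in WT mice and from 5.77, 3.37, 4.725, 6.65 and 4.11 to 13.3, 14.1, 42.6, 29.2 and 15.45 CPM in KO mice. Ifi203 rose 3.06-fold in WT and 3.41-fold in KO mice (adjusted p = 0.000145 and 2.07e-05, edgeR). For Mndal the rises were 4.53-fold and 4.65-fold (adjusted p = 2.43e-05 and 6.58e-06, edgeR). Of their 75-base stretches, 15.19% and 15.35% occur at more than 1 place, and Mndal shares 6.37% with Ifi203.

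Ifi214 (ENSMUSG00000070501, chr1:173347283-173363523) was the lowest member per length in each group and is given in counts. WT libraries held 1, 1, 5 and 6 counts with PBS and 13, 11, 20, 16 and 22 counts with LPS. KO libraries held 0 counts in 5 of 5 with PBS and 5, 15, 23, 15 and 4 counts with LPS. From summed counts scaled to library totals, its level after LPS was 5.58 times that with PBS in WT mice (13 and 82 counts, 95% counting interval 3.09 to 10.9) and at least 23.5-fold higher in KO mice, against a floor of 3 counts over the PBS group. Shared sequence makes up 19.64% of its 75-base stretches, all of it in common with Ifi209, which had far more counts in each library.

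**Figure D3:**
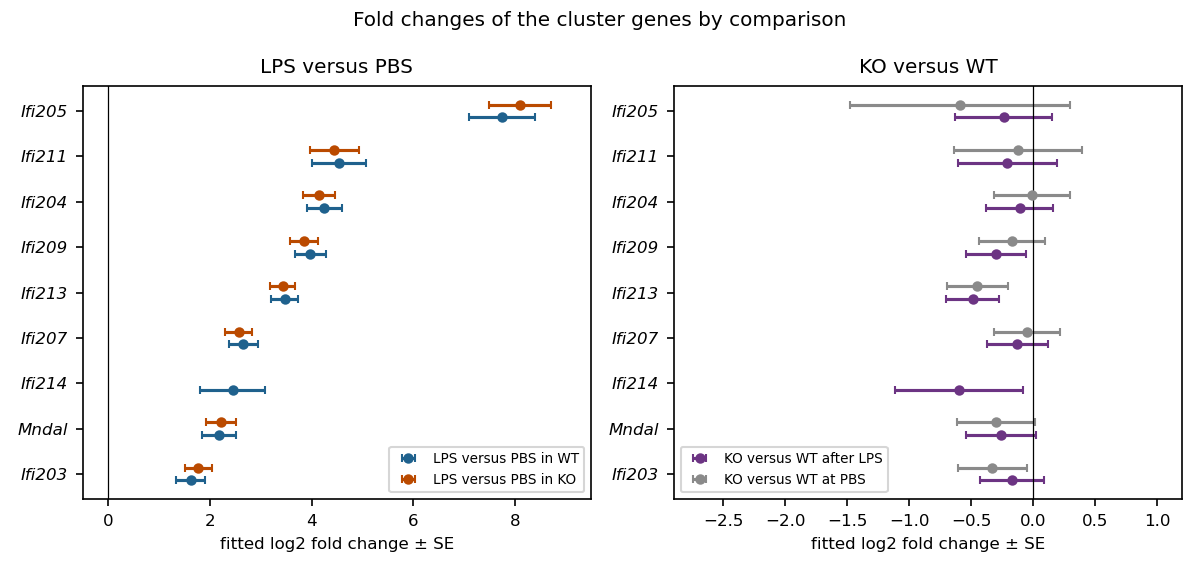
Fitted log2 fold changes (horizontal axis, points, with SE bars) of the 9 genes for LPS versus PBS (left, WT blue and KO orange) and for KO versus WT (right, after LPS purple and at PBS grey). Ifi214 is left out of both comparisons that involve the KO PBS libraries, where its counts were all 0. The rises with LPS run from 1.62 to 8.11, and the KO versus WT points shown lie below 0.

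Levels were compared between genes per kilobase of annotated exons (RPKM). The summed level of the 9 genes was 13.9 ± 0.923 RPKM (SD, n = 4) in WT mice with PBS and 157 ± 46.6 RPKM (n = 5) with LPS. In KO mice it was 12.6 ± 1.41 RPKM and 137 ± 64.7 RPKM (n = 5 each). With PBS the order of the mean RPKM was Ifi207, Ifi204, Ifi209, Ifi203, Mndal, Ifi211, Ifi213, Ifi205 and Ifi214 in both genotypes. Neighbours whose libraries did not overlap in either genotype were Mndal and Ifi211 as well as Ifi213 and Ifi205, while Ifi207 and Ifi204 were apart in WT only and Ifi209 and Ifi203 in KO only. The other neighbours overlapped in both.

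After LPS the order became Ifi204, Ifi209, Ifi207, Ifi211, Ifi205, Mndal, Ifi203, Ifi213 and Ifi214, again in both genotypes. Ifi207 and Ifi211 did not overlap in WT mice, Ifi213 and Ifi214 did not overlap in either genotype, and the other neighbours overlapped. Within each single library, though, Ifi204 lay above Ifi209 and Ifi209 above Ifi207 in 5 of 5 libraries of both genotypes. Ifi207 went from 31.3% of the summed level with PBS to 17.4% with LPS in WT mice, and Ifi204 from 19.6% to 33.0%. Ifi205 went from 0.34% to 6.53%, and Ifi203 from 13.7% to 3.69%. In KO mice Ifi204 went from 21.4% to 35.0% and Ifi207 from 33.3% to 18.1%. The order depends on the length used: with the length of the canonical transcript, an alternative added after the data were seen, Ifi204, Ifi209 and Ifi207 stayed the first 3 after LPS in both genotypes, but Ifi205 then followed them, with 11.3% of the sum in WT mice, and with PBS Ifi203 and Mndal came ahead of Ifi209.

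**Figure D4:**
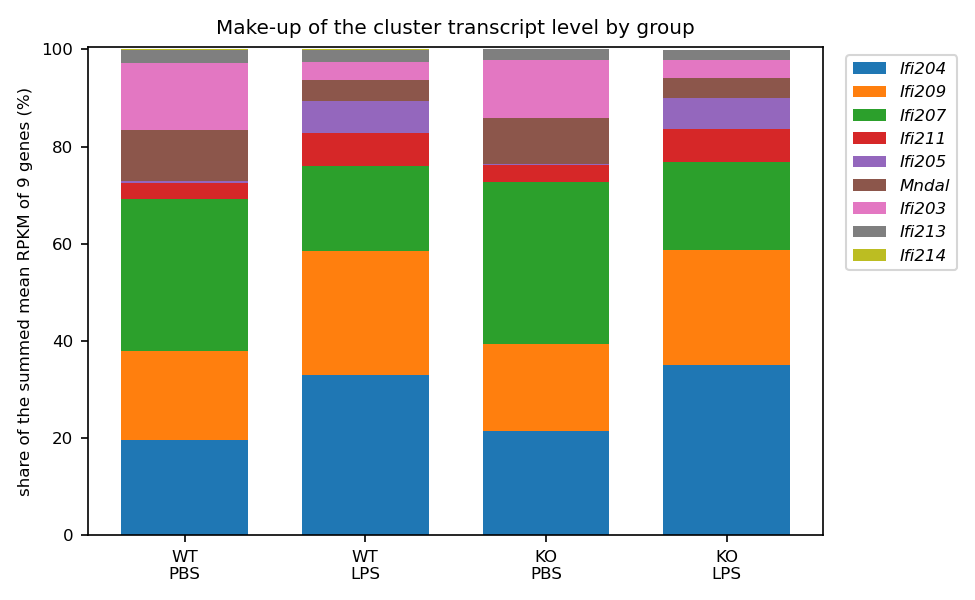
Share of each gene in the summed mean RPKM of the 9 genes (vertical axis, %, stacked from 0) in the 4 groups. The share of Ifi207 (green) is smaller and that of Ifi204 (blue) larger with LPS than with PBS in both genotypes, and Ifi205 (purple) is visible only with LPS.

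The comparison of KO with WT mice after LPS asks whether the levels after LPS differed between the genotypes, and it includes any difference already present at PBS. None of the 9 members was called lower or higher, at an unadjusted p under 0.05 and a log2 fold change of at least 0.5 in size (edgeR), and 0.763% of all genes tested were called lower. DESeq2 called 0 of 9 as well. The fitted log2 fold changes were below 0 for 9 of 9 members, from -0.60 (Ifi214) to -0.11 (Ifi204), with a median of -0.24 beside 0.02 over all genes. For no member were the KO and WT libraries apart, and how many of all genes were apart was not counted. Ifi213 had the lowest p, with a log2 fold change of -0.49 ± 0.217 (unadjusted p = 0.036, adjusted p = 1, edgeR), and was the only member with an unadjusted p under 0.05. The study also named Ifi213 on these samples, so this value is not independent evidence. Its 95% interval, from the SE, ran from -0.91 to -0.07. The intervals of the other 8 members spanned 0, among them -0.64 to 0.43 on the log2 scale for Ifi204, -1.0 to 0.53 for Ifi205, -0.62 to 0.35 for Ifi207 and -0.77 to 0.18 for Ifi209.

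A single library weighed on this comparison. KO LPS library 3 was the highest of its group for 8 of 9 members, and without it 4 members were called lower in KO, where 1.15% of all genes were: Ifi213 (log2 fold change -0.60, unadjusted p = 0.0163), Mndal (-0.60, unadjusted p = 0.0261), Ifi209 (-0.56, unadjusted p = 0.0192) and Ifi203 (-0.53, unadjusted p = 0.0183). All 4 had an adjusted p of 1 (edgeR). Leaving out WT LPS library 2, 3 or 4 or KO LPS library 4 gave 1 called member, Ifi213, with log2 fold changes from -0.61 to -0.52. In those fits 0.856%, 0.77%, 0.979% and 1.05% of all genes were called lower. Monocyte markers had a median sum of 346 CPM in WT and 198 CPM in KO mice after LPS, with overlapping ranges (246 to 465 and 144 to 367 CPM), and their part in the KO and WT values was not tested.

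At PBS, the question is whether the cluster already differed before inflammation. One member, Ifi214, was called lower in KO (unadjusted p = 0.00082, adjusted p = 1, edgeR), where 0.576% of all genes were called lower. It was also the only member whose KO and WT libraries did not overlap: 0 counts in 5 of 5 KO libraries, against 13 counts over the 4 WT libraries. How many of all genes were apart in this way was not counted. Set against a floor of 3 counts over the KO group, Ifi214 was at least 6.16-fold lower in KO. The study itself singled out Ifi214 on these samples, so the value is not independent evidence, and 2 of the 4 WT libraries held a single count. The other 8 members overlapped, with log2 fold changes from -0.59 (Ifi205) to -0.01 (Ifi204), and Ifi213 at -0.45 ± 0.248 (unadjusted p = 0.0876, edgeR). After LPS Ifi214 did not differ past the threshold, at 82 counts in WT and 62 in KO (ratio of scaled counts 0.684, 95% counting interval 0.483 to 0.962, unadjusted p = 0.264 by edgeR over the mice).

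The interaction of genotype and LPS, which tests whether the rise differed between KO and WT mice, was called for 0 of 9 members at an adjusted p under 0.05 (edgeR), and for 0.0% of all genes tested. Without adjustment, 1 member had p under 0.05: Ifi214, at 4.20 ± 1.24 on the log2 scale (unadjusted p = 0.00431, adjusted p = 1, edgeR). That value rests on the KO PBS counts of 0 and is no measured fold. DESeq2 called 0 of 9. The other 8 members lay between -0.13 and 0.36, and the intervals ran from -0.90 to 0.70 for Ifi204 and from -1.48 to 2.19 for Ifi205.

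Within the LPS groups the members mostly had their extremes in the same libraries. In WT mice after LPS, library 2 was the lowest for 9 of 9 members and library 4 the highest for 5. In KO mice after LPS, library 1 was the lowest and library 3 the highest for 8 of 9 members each. With PBS the extremes were more spread: library 4 was the highest for 6 members in WT mice, where library 1 was the lowest for 5 and library 2 for 4, and in KO mice library 1 was the highest for 4 and library 2 the lowest for 5. After subtracting each group's mean from the log2 CPM, the 28 pairs among the 8 members with a mean of at least 20 counts had Pearson correlations from 0.311 to 0.939 over 19 libraries, with a median of 0.693. These are descriptions over libraries that share depth, cell composition and, in part, reads. The highest was that of Ifi203 and Mndal. With the neighbour Ifi206 the median was 0.574, with Aim2 0.432 and with Ifi208 -0.111.

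**Figure D5:**
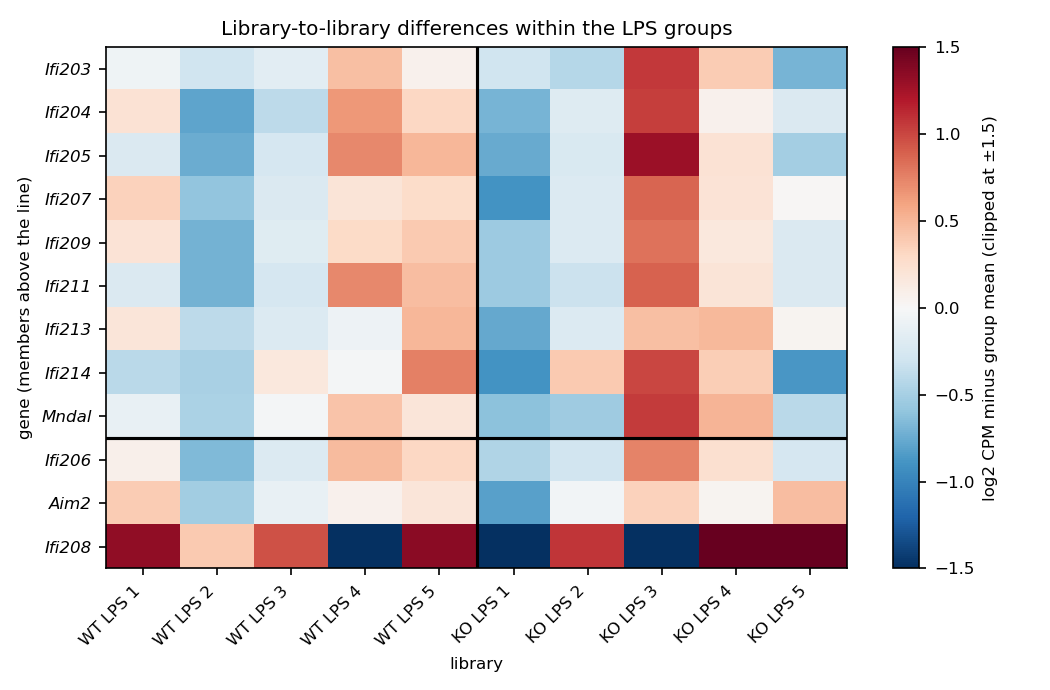
Deviation of log2 CPM from the group mean (colour, red above and blue below, clipped at ±1.5) for the 9 members (above the line) and Ifi206, Aim2 and Ifi208 (below it) in the 10 LPS libraries (columns). In WT LPS 2 and KO LPS 1 each of the 9 members lies below its group mean and in KO LPS 3 each lies above it, while Ifi208 takes another order.

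Genes most like each member were ranked by Pearson correlation of log2 CPM over all 19 libraries, which is dominated by the LPS response. Ifi204 and Ifi209 were each other's nearest gene (r = 0.993), as were Ifi203 and Mndal (r = 0.989). Stat2, a subunit of the complex that binds the ISRE, was the nearest to Ifi207 (r = 0.99) and second to Ifi204 (r = 0.992). Ifi205 was nearest to Oasl1 (0.995), Isg15 (0.993) and Irf7 (0.992), and Ifi213 to Oas2 (0.993), all interferon-stimulated genes. Ifi211 was nearest to Tor3a (0.984). With the group means removed, Ifi203 and Mndal remained each other's nearest (0.939), Stat2 remained nearest to Ifi207 (0.892), and Dhx58, which encodes the RNA-sensor relative LGP2, was nearest to Ifi204 (0.923) and Tor1aip2 to Ifi209 (0.93). Among the other 3, Rapgef2 was nearest to Ifi205 (0.859), Dtx3l to Ifi211 (0.867) and the predicted gene Gm43844 to Ifi213 (0.87).

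Of the other genes of the cluster, 5 of 7 listed were found in the table by name and 4 were tested. One of the 4, Ifi208, passed the low-count filter only through its LPS libraries (3 of 9 PBS libraries reached the cutoff) and is described by its counts. Of the other 3, 2 were higher after LPS in each genotype, where 18.4% of all genes in WT and 20.1% in KO mice were called higher. Between genotypes 0 of the 4 were called, where 0.763% of all genes were called lower after LPS and 0.576% at PBS. Ifi206 rose with log2 fold changes of 4.66 in WT and 4.65 in KO mice, and Ifi203-ps, a transcribed pseudogene, with 2.18 and 2.08. Aim2, the inflammasome sensor at the edge of the cluster, was the exception. It stood at 69.6, 45.3, 69.2 and 59.6 CPM with PBS and 79.5, 42.5, 56.25, 63.9 and 69.4 CPM with LPS in WT mice, and at 42.5, 53.3, 62.5, 70.6 and 68.4 CPM and 36.8, 62.8, 82.1, 66.3 and 89.2 CPM in KO mice. Its log2 fold change was 0.03 in WT (adjusted p = 0.929, edgeR) and 0.18 in KO mice, and its groups overlapped. Its window held no ISRE letters, and neither did that of Ifi209, which was higher after LPS. A link between the letters and the change was not tested. Ifi202b had 0 to 2 counts in every library.

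Ifi208, whose promoter stretch equals that of Ifi213, was uneven among mice of the same group. WT libraries held 8, 0, 22 and 0 counts with PBS and 213, 100, 162, 3 and 151 counts with LPS. KO libraries held 9, 18, 11, 6 and 16 counts with PBS and 4, 105, 13, 155 and 175 counts with LPS. WT LPS library 4 and KO LPS libraries 1 and 3 thus lay within or below the range of the PBS libraries of their genotype in CPM. KO LPS library 3, low for Ifi208, was the highest of its group for 8 of 9 members. Ifi213 shares 8.85% of its 75-base stretches with Ifi208.

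Among 16 genes of interferon signalling, 14 were tested, and 7 were higher after LPS in each genotype, with none lower, where 18.4% of all genes were called higher in WT and 20.1% in KO mice. They included Irf7, a master regulator of interferon genes (log2 fold change 4.74 in WT and 4.61 in KO mice), Stat2 (2.40 and 2.25), Irf1 (1.81 and 1.45), Irf9 (1.45 and 1.53), Jak2 (1.15 and 1.10) and Jak1 (0.97 and 1.26). The receptor subunits Ifnar1 (0.01 and 0.22) and Ifnar2 (0.13 and 0.23) were not called. Interferon transcripts themselves were too low for the fit: Ifnb1 held 2, 0, 6, 4 and 14 counts in the WT and 1, 4, 7, 2 and 14 counts in the KO libraries after LPS and 0 in every PBS library, and Ifng held 10, 1, 19, 25 and 8 and 0, 1, 1, 5 and 0 counts after LPS. The list median was 0.70 in WT and 0.76 in KO mice, beside -0.06 and -0.01 over all genes. Between genotypes, 0 of the 14 were called after LPS or at PBS, where 0.763% and 0.576% of all genes were called lower. After LPS the lowest p were those of Irf7, at -0.47 ± 0.161 (unadjusted p = 0.00877), and Jak1, at 0.35 ± 0.136 (unadjusted p = 0.0196), both under the size asked for and with an adjusted p of 1 (edgeR).

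Of 12 tested genes of cytosolic DNA sensing and the inflammasome, 6 were higher after LPS in each genotype: Ikbke (log2 fold change 5.82 in WT), Il1b (4.95), the Z-nucleic acid sensor Zbp1 (4.88), the dNTPase Samhd1 (1.18), the DNA sensor Cgas (0.97) and Ddx41 (0.74). The share of all genes called higher was 18.4% in WT and 20.1% in KO mice, and the list median was 0.54 and 0.50. Sting1, the adaptor downstream of p204 and cGAS, was called lower in WT mice at -0.75 and was at -0.34 in KO mice, not called, and the difference of 0.40 was not called by the interaction test. Pycard, which encodes ASC, was at 0.34 and 0.16 and was not called. Samhd1 was the only gene of this list called between genotypes, lower in KO after LPS at -0.52 ± 0.166 (unadjusted p = 0.00592, adjusted p = 1, edgeR). Among all genes, 0.763% were called lower in KO after LPS and 0.576% at PBS. Zbp1 was at -0.48 (unadjusted p = 0.0121) and Gsdmd, which encodes the pore protein gasdermin D, at -0.27 (unadjusted p = 0.0351, edgeR), both under the size asked for. Trex1 was listed at 0 counts in every library.

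The 11 classical interferon-stimulated genes were all called higher after LPS in both genotypes, against 18.4% and 20.1% of all genes, from 2.13 (Irgm1) to 6.84 (Cxcl10) in WT mice, with a median of 3.99 in WT and 3.89 in KO mice. Between genotypes, 0 of the 11 were called after LPS or at PBS, where 0.763% and 0.576% of all genes were called lower. After LPS 10 of the 11 had a log2 fold change below 0, with a median of -0.23 beside 0.02 over all genes. Isg15 was the only one with an unadjusted p under 0.05, at -0.47 (unadjusted p = 0.0335, edgeR).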

How the data were processed

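RNA was sequenced from MACS-isolated CD11b+ brain cells of 19 male mice. The authors depleted ribosomal RNA, built stranded libraries from total RNA, and after trimming with Cutadapt used STAR 2.7.9a on GRCm39 for alignment and counting. The deposited values are raw counts per Ensembl gene and mouse. How reads with several places in the genome were counted, and with which strand setting, is not given in the sources used here, which bears on near-identical genes of this cluster. A chi-square comparison found no duplicate libraries (within groups it was at least 7.04 per degree of freedom), and each was 1 replicate. At 3 counts, the smallest signal taken, a library's floor was 0.139 to 0.256 CPM, and such limits cover counting error only.

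Counts were analysed with edgeR 4.0.16 in R 4.3.3 (filterByExpr with minimum count 10 and minimum total 15, TMM, 1 quasi-likelihood fit of 4 groups, Benjamini-Hochberg adjustment). The SE is the size of a log2 fold change divided by the square root of F. CPM used TMM-scaled totals, log2 CPM a prior count of 2, and RPKM the summed length of annotated exons. LPS versus PBS was called at an adjusted p under 0.05 and KO versus WT at an unadjusted p under 0.05, both with a log2 fold change of at least 0.5 in size. Exonic 75-base stretches were counted in GRCm39. Promoter sequences are from RefSeq. The scripts were tested on simulated data.

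The text names all 9 members, the genes of 4 lists (other cluster genes, interferon signalling, DNA sensing and inflammasome, classical interferon-stimulated genes), Park7 and Tnfrsf9, and, for each of the 8 members with a mean of at least 20 counts, genes among the 3 most correlated. The members and lists were chosen with earlier results of these data known. Some genes of the lists are not reported here. Alternatives were DESeq2 1.42.0, its size factors, other low-count filters, fits of 2 groups, the replicate block, the animal number as a covariate, other thresholds, plain library totals and each library left out.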

Additional observations from a re-analysis of the deposited data

Results flagged for a closer look

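Ifi213 in the WT libraries with PBS had 1 library far from the others: the highest stood at 4.47 CPM and the next at 3.09 CPM, so that this gap made up 0.889 of the range of the 4 libraries. Of 35 combinations of member and group examined in this way 1 was singled out, and chance singles out about 1 in 20.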

How the results depend on the processing

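Of the 7 members whose PBS counts sufficed for the low-count filter, 7 were called higher after LPS in both genotypes whichever library was left out and under each alternative fit except 1: with at least 10 counts required in every library, 6 of the 7 were in the fit and all 6 were called. The share of all genes called higher was 18.4% in WT and 20.1% in KO mice. With Ifi205 and Ifi214, whose direction the filter fixed, the counts of 9 became 6 and 6 under the stricter filter and 8 in KO with the 2 groups alone in the fit, where Ifi214 did not pass. For KO versus WT after LPS, 1 member was called lower with no low-count filter and 1 with the animal number as a covariate (0 otherwise), and 0 to 4 when a library was left out. At PBS the 1 call, Ifi214, became 0 with at least 10 counts in every library and 0 with 2 groups in the fit, where Ifi214 did not pass the filter, and 0 with an adjusted p. It became 2, with Ifi213 added, under the animal covariate. For the interaction, 1 member passed at an unadjusted p.

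Directions turned in the following differences, none of which was called. With the replicate block, Ifi204 at PBS went to 0.01 and the interaction of Mndal to -0.04. Same-numbered libraries are different mice. Their deviations correlated from -0.042 to 0.576 between LPS and PBS in WT, from 0.027 to 0.544 in KO and from -0.573 to 0.3 between genotypes, not over 0.1 in every pair, so the numbers were not taken as pairs. As a hint from the data only, 2 of 4 LPS libraries in WT and 3 of 5 in KO were closest to their own number. The replicate block changed no call. With single libraries left out, KO versus WT after LPS ranged from -0.47 to 0.07 for Ifi204, from -0.41 to 0.05 for Ifi207 and from -0.51 to 0.0 for Ifi211. At PBS it ranged from -0.08 to 0.07 for Ifi204, -1.08 to 0.11 for Ifi205, -0.13 to 0.07 for Ifi207, -0.29 to 0.06 for Ifi209 and -0.46 to 0.14 for Ifi211. The interaction ranged from -0.20 to 0.31 for Ifi203, -0.46 to 0.08 for Ifi204, -0.33 to 0.84 for Ifi205, -0.36 to 0.09 for Ifi207, -0.39 to 0.24 for Ifi211, -0.22 to 0.11 for Ifi213 and -0.31 to 0.19 for Mndal. Depth limits Ifi214, at 0 to 6 counts with PBS, and Ifi205 with PBS, at 0 to 7 counts. The cause of the other shifts was not tested.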
